A study of Mus musculus with 386 samples.

Results

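Extracellular matrix genes encode the proteins that cells secrete around themselves. The group described here has 43 named genes, and 40 of them were measured among the 18820 genes of the arrays. For each gene symbol the transcript cluster (the array's unit of measurement) that carries that symbol alone was used, and where a symbol had several such clusters the one with the highest mean was taken. Nid2 and Mfap4 were present only on clusters that carry several symbols, and Fbn1 was not listed in the probe table used here, so these 3 genes have no values. The 40 measured genes fall into 7 roles. There are 5 fibrillar collagens (Col1a1, Col1a2, Col3a1, Col5a1, Col5a2), 4 fibril partners (Col14a1, Lum, Dcn, Bgn), 4 collagen VI chains (Col6a1, Col6a2, Col6a3, Col6a5), 7 basement membrane genes (Col4a1, Col4a2, Col15a1, Col18a1, Lama2, Lamb1, Nid1), 9 elastic fibre genes (Eln, Fbln1, Fbln2, Fbln5, Emilin1, Mfap5, Lox, Loxl1, Loxl2), 6 adhesive and matricellular genes (Fn1, Sparc, Postn, Tnc, Thbs1, Vcan) and 5 turnover genes (Mmp2, Mmp14, Timp1, Timp2, Timp3). Members that are neighbours on a chromosome, and so are not independent in position, are Col4a1 and Col4a2, Col3a1 and Col5a2, Col6a1 and Col6a2, and Dcn and Lum.

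Fibrillar collagens assemble into the cables that give tissue its tensile strength, and small proteoglycans such as decorin and lumican bind these cables and set their width. Basement membranes are thin sheets of collagen IV, laminin and nidogen beneath epithelium and around vessels, and elastic fibres consist of an elastin core laid on microfibrils and cross-linked by lysyl oxidases. Fibroblasts, smooth muscle cells and related stromal cells make most of this material, and the lung of a young mouse is still laying down elastin as it forms alveoli.

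RNA was taken from lung, liver, kidney and brain of mice aged 23 days and hybridised to Affymetrix Mouse Gene 1.1 ST arrays. The mice were CAST, PWK or WSB inbreds or came from the 6 F1 crosses among these strains made in both directions, in both sexes, all bred at a single university within a few generations of founder animals. Crosses are written with the dam before the sire, so CASTxWSB had a CAST dam and a WSB sire, and CASTxCAST, PWKxPWK and WSBxWSB are the inbreds. The 386 arrays (85 of brain, 102 of kidney, 101 of liver, 98 of lung) came from 111 animals, with 6 to 13 arrays for a cross in a tissue and 2 to 7 where a cross is further divided by sex. Per the labels the RNA came from powdered tissue, so the arrays average over all cell types. Values are log2 signals, a difference of 1 being a doubling of signal, and the median signal of an array lay between 5.89 and 6.36. Replicates are separate animals per the labels, and most animals gave several tissues, 67 of them all 4.

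As a check of the labelled tissues, brain had the highest level of 8 of 8 neuron markers, kidney of 8 of 8 proximal tubule markers, liver of 7 of 8 hepatocyte markers and lung of 7 of 8 alveolar markers. All 7 measured heart muscle markers were highest in lung and all 7 measured fat markers in kidney. In 2 arrays sex-linked genes departed from the labelled sex. PWKxWSB liver replicate 8, labelled male, had Xist at 10.70 and the Y-linked Eif2s3y at 4.53, both against its label. PWKxCAST brain replicate 9, labelled female, had both low, Xist at 3.98 and Eif2s3y at 3.83, so only Xist went against its label. Summed over the contrasts of a kind in a tissue, no count of members called changed by over 1.5 times without these 2 arrays. Reciprocal counts in males alone, in females alone and for the difference between the sexes were not refitted without them. A member was tested in a tissue where its mean reached the 40th percentile of all genes, which held for 26 members in brain and for 38, 35 and 40 in kidney, liver and lung. A difference is referred to as called where its adjusted p was under 0.05. In samples of whole tissue, fewer matrix-producing cells and less RNA per cell cannot be told apart.

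The upstream sequences of 4 members that lead a comparison below are shown for reference, as 250 bases before the most upstream listed transcription start in RefSeq (GRCm38.p6), in the direction of transcription. Fbln1 lies at chr15:85205699-85205948 on the plus strand, Lama2 at chr10:27616943-27617192 on the minus strand, Tnc at chr4:64047016-64047265 on the minus strand and Timp1 at chrX:20869916-20870165 on the plus strand. Capitals mark matches on either strand. The motifs searched were CCAAT, known by that name, then TATAAA for the core of a TATA element, and finally GGGCGG for a GC box, and no match overlaps another.
Fbln1: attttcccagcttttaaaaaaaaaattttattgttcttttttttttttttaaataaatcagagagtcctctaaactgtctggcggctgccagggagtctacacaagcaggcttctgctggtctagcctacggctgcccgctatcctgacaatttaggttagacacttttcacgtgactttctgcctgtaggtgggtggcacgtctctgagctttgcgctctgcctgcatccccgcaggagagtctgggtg
Lama2: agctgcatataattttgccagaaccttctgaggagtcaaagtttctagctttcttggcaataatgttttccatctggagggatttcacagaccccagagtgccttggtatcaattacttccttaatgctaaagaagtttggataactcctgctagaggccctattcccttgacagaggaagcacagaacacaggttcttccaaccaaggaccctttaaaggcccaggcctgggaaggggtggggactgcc
Tnc: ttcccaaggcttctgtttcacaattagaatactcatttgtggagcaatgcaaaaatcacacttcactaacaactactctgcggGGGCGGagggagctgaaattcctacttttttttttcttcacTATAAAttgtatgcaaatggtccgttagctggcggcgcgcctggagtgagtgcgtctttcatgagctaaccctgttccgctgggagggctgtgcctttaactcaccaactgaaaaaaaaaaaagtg
Timp1: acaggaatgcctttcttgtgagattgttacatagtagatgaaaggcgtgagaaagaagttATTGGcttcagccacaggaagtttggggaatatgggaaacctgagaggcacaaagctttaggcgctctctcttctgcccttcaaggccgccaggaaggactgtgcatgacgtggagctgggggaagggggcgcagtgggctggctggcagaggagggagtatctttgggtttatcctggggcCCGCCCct
The Tnc window holds a GC box 167 to 162 bases and a TATAAA match 126 to 121 bases before the start. In the Timp1 window a CCAAT box on the opposite strand lies 190 to 186 bases before the start, and a GC box on the opposite strand 8 to 3 bases before it. None of these letters occur in the Fbln1 and Lama2 windows. Of 32851 RefSeq windows of this length, 33.8% hold CCAAT, 12.4% hold TATAAA and 32.7% hold GGGCGG. Among the 34 windows of the 28 members with an entry, these numbers are 11, 4 and 21 windows.

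Matrix genes were at their highest in lung. When each tissue was set against the mean of the other 3, 39 of 40 members were called higher in lung and 1 was called lower, at a median difference of 1.92, and in brain 2 of 26 were higher and 24 lower, at a median of -2.04. Kidney had 29 of 38 higher and 8 lower (median 0.64), and liver 10 of 35 higher and 23 lower (median -0.89). Nearly every gene on the array differed between tissues, so the share called is no result about matrix genes. It was 96.2% of all genes in brain (45.9% lower), 94.2% in kidney (56.1% higher), 96% in liver (46.6% lower) and 96.1% in lung (57.2% higher). The median difference of all genes was 0.16 for lung, 0.12 for kidney, 0.05 for brain and 0.03 for liver, and the members' differences stand relative to it.

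Fibrillar collagens had the same order of tissues for type I and type III. Col1a1, a chain of the main collagen of stiff tissue, had a mean signal of 11.35 ± 0.28 in lung (SD, n = 98), 9.74 ± 0.38 in kidney (n = 102), 8.88 ± 0.27 in liver (n = 101) and 8.20 ± 0.43 in brain (n = 85). Col3a1, the collagen of more pliable tissue, went from 11.21 ± 0.22 in lung to 6.91 ± 0.19 in brain, a brain difference of -3.18 against the other tissues. All 5 fibrillar collagens were higher in lung, at a median of 2.32. Brain Col1a1 spread widely between arrays, from 7.52 to 10.02, and its residual SD of 0.37 was above that of 99.3% of genes tested in brain.

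Of the fibril partners, Bgn (biglycan) had the same order, from 13.02 in lung through 12.29 in kidney and 11.85 in liver to 10.01 in brain, and Lum (lumican) was also highest in lung, at 8.37. The other two departed from it. Dcn (decorin) was highest in liver, at 11.81 ± 0.17 against 11.56 ± 0.24 in lung, 11.03 ± 0.31 in kidney and 9.39 ± 0.34 in brain. Col14a1, a collagen that sits on the surface of fibrils, was highest in kidney at 10.16 ± 0.33, with 9.85 ± 0.28 in liver and 9.59 ± 0.29 in lung. The 4 fibril partners were all called higher in liver, at a median of 0.74, while the 5 fibrillar collagens there had differences from -0.92 to 0.19.

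Collagen VI, which forms beaded filaments next to cells, was called higher in lung for all 4 chains at a median of 2.89. Its chain Col6a3 had a lung difference of 3.49. Basement membrane genes were called higher in kidney for 7 of 7 (median 0.97) and in lung for 6 of 7 (median 1.92), but lower in liver for 6 of 7 (median -1.18). The exception in both was Col18a1, the source of endostatin, whose mean was 11.20 ± 0.15 in liver, 9.47 ± 0.20 in kidney, 8.27 ± 0.16 in lung and 6.20 ± 0.15 in brain. The liver and lung values of Col18a1 did not overlap, as the lowest liver array was at 10.83 and the highest lung array at 8.61.

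Elastic fibre genes were called higher in lung for 9 of 9, at a median of 2.06. Eln, which encodes elastin itself, had a mean of 12.39 ± 0.20 in lung and of 8.75 ± 0.30, 8.52 ± 0.21 and 7.18 ± 0.20 in kidney, liver and brain. Its lung difference was 4.23, that of Mfap5 (a microfibril glycoprotein) 3.99 and that of Lox (lysyl oxidase) 3.46. Fbln5, which links elastin to microfibrils and cells, was higher in kidney (11.93 ± 0.14) than in lung (11.66 ± 0.14).

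Among adhesive and turnover genes, Vcan (versican, a large proteoglycan) was highest in brain at 8.93 ± 0.18 and Timp2, an inhibitor of metalloproteinases, was called higher there by 0.65. These were the only members tested that were called higher in brain. Postn (periostin) had a lung difference of 4.05, and Fn1 (fibronectin) was higher in liver by 1.34 and in lung by 1.40. Genes of the same pathway outside the 43 were also mostly higher in lung, where 17 of 17 genes of collagen processing, 14 of 14 other basement membrane genes, 7 of 7 other microfibril genes, 10 of 10 TGF-beta genes and 16 of 17 matrix receptor genes were called higher. Of 10 fibroblast markers 8 were at their highest in lung, where their level (log2 of the markers' mean signal in an array) was 10.43 to 11.15, against 9.80 to 10.40 in kidney, 9.09 to 9.72 in brain and 7.50 to 8.42 in liver. This level is set mainly by the most abundant markers. Only 3 of the 10 reached the level set for testing in brain and 6 in liver, and 1 was at its highest in brain. The levels therefore do not rank brain and liver by their fibroblasts. Smooth muscle markers were highest in lung for 7 of 8. The part of these cells in the tissue differences was not tested.

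**Figure D1:**
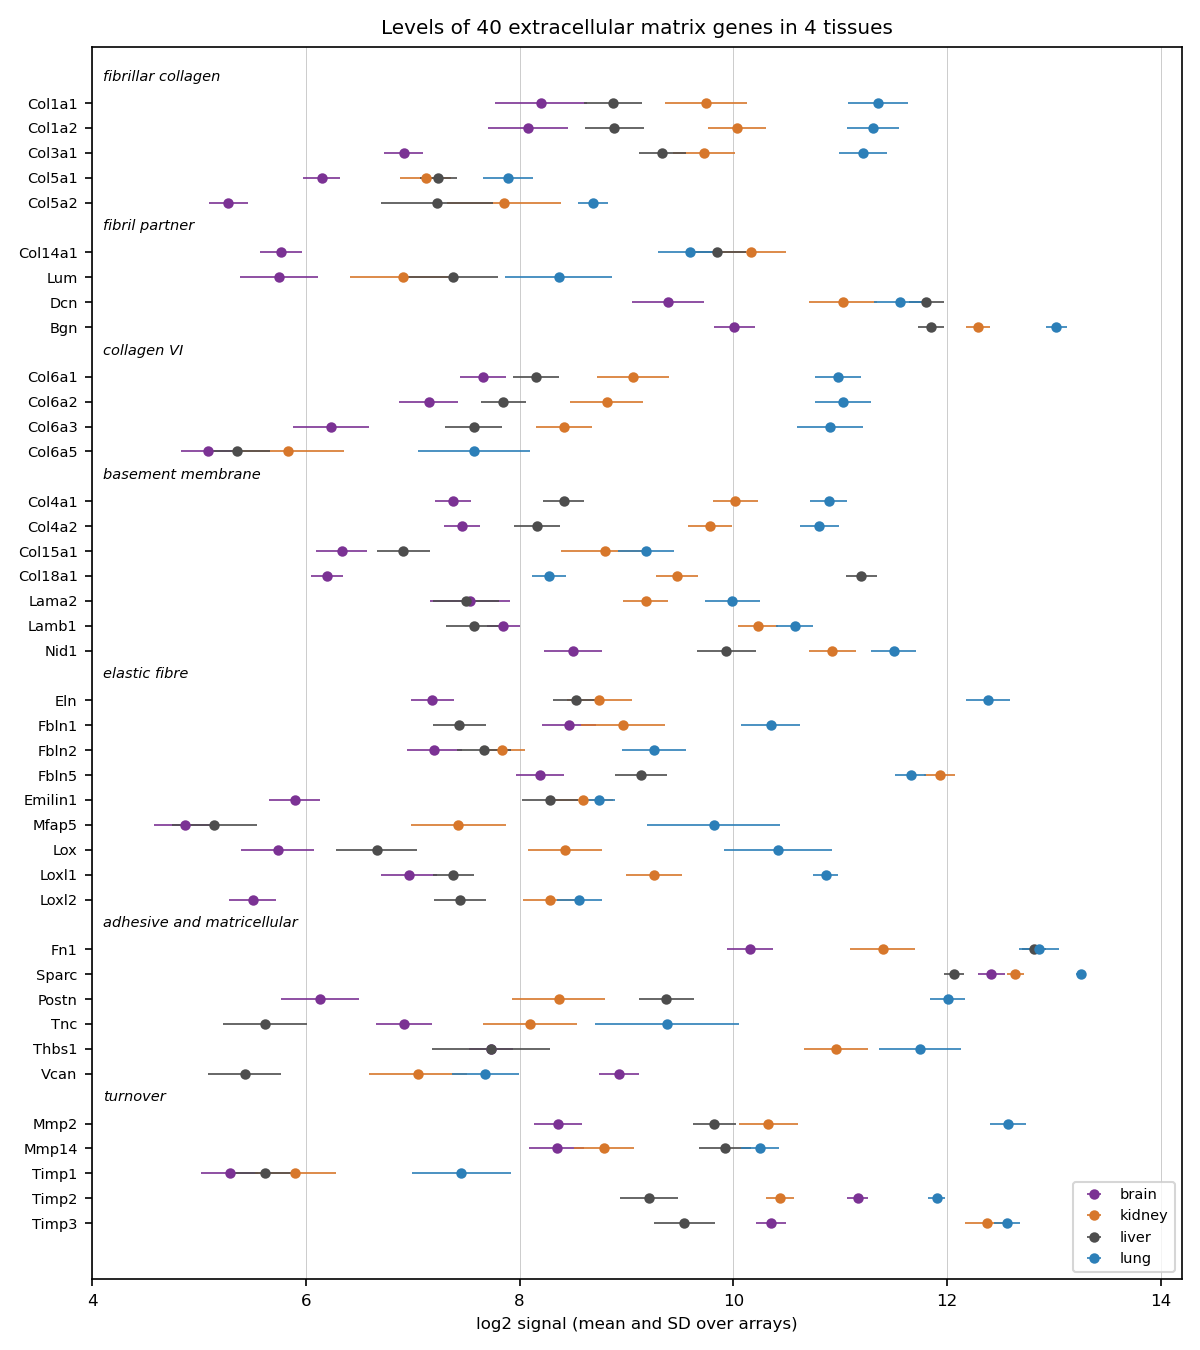
Mean log2 signal of the 40 measured matrix genes in brain, kidney, liver and lung, ordered by role, with bars of 1 SD over arrays. Most genes are highest in lung and lowest in brain, while Col18a1 is highest in liver at 11.20, Fbln5 in kidney at 11.93 and Vcan in brain at 8.93.

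Kidneys of WSB mice had less matrix signal than those of the other inbreds. Of 38 members tested, 32 were called higher in PWK against WSB kidney and 2 lower, at a median difference of 0.43, where 60.7% of all genes were called in either direction and 37.5% higher, at a median of 0.06. In CAST against WSB kidney 26 were higher and 3 lower, at a median of 0.28, with 59.6% of all genes called and 34.1% higher. CAST and PWK kidneys differed in fewer members, 4 higher and 15 lower in CAST, where 60.1% of all genes were called. The counts against WSB reached all 5 fibrillar collagens, at medians of 0.60 in PWK and 0.53 in CAST, and all 3 tested collagen VI chains, at 0.92 and 0.64. In PWK kidney all 7 basement membrane genes exceeded WSB, at a median of 0.36, and 3 of 7 in CAST. Elastic fibre genes had 7 of 9 higher and 1 lower in PWK, and 5 of 9 higher and 2 lower in CAST.

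Col5a2, a minor chain that helps to start collagen fibrils, had the largest difference. Its kidney signal was 8.22, 8.53 and 8.78 in PWK (lowest, median, highest, n = 12), 7.15, 7.80 and 8.01 in CAST (n = 11) and 6.55, 6.83 and 7.05 in WSB (n = 12). The 3 strains were apart with no overlap. PWK was 3.23-fold above WSB, a log2 difference of 1.69 (SE 0.08, adjusted p = 7.75e-37), and CAST was above WSB by 0.88 (SE 0.08, adjusted p = 4.08e-18) and below PWK by 0.81. The neighbouring Col3a1 was also higher in both strains than in WSB, as one of the fibrillar collagens counted above.

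Fbln1 (fibulin-1, a protein of elastic fibres and basement membranes) had kidney signals of 9.13, 9.44 and 9.75 in PWK, 8.89, 9.15 and 9.50 in CAST and 7.87, 8.24 and 8.80 in WSB. WSB overlapped neither of the other strains. The difference was 1.09 in PWK (SE 0.09, adjusted p = 1.72e-18) and 0.86 in CAST (SE 0.10, adjusted p = 2.85e-13). For Col6a2, a collagen VI chain, PWK arrays at 8.99, 9.26 and 9.58 stood clear of WSB arrays at 7.94, 8.26 and 8.80, a difference of 0.96 (SE 0.08, adjusted p = 5.83e-18). Lum was at 6.93, 7.31 and 7.67 in CAST and at 5.62, 6.36 and 6.85 in WSB, apart by 0.98 (SE 0.15, adjusted p = 1.97e-08).

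A few kidney members ran the other way. Timp3, an inhibitor of metalloproteinases held in the matrix, was lower in PWK (11.91, 12.08 and 12.38) than in WSB (12.45, 12.72 and 12.88), with no overlap, by 0.58 (SE 0.04, adjusted p = 7.47e-22), and in CAST by 0.41. Mfap5 was lower than in WSB by 0.67 in PWK and 0.66 in CAST, with overlapping arrays, and Lox was lower in CAST by 0.64. Between CAST and PWK, kidney Dcn was higher in CAST (11.21, 11.63 and 11.71 against 10.51, 10.76 and 11.13), by 0.77 (SE 0.08, adjusted p = 4.28e-14). CAST exceeded PWK in Vcan by 0.47 and in Loxl1 by 0.25, whereas Col15a1 was lower by 0.85 and Lox by 0.82.

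Genes that process and bind matrix differed in the same kidneys. In PWK against WSB, 12 of 14 other basement membrane genes were higher and none lower, among them Lamc3 by 0.62 and Npnt by 0.32. Collagen processing had 8 of 17 higher and 4 lower, with Serpinh1 (the collagen chaperone) higher by 0.64 and Pcolce by 0.44, and other microfibril genes had 4 of 7 higher and 1 lower, with Ltbp4 higher by 0.61 and Mfap2 by 0.57. In CAST against WSB these counts were 8 and 2 of 14, 7 and 6 of 17, and 2 and 0 of 7. TGF-beta genes had 3 of 10 higher and none lower in PWK, and 4 higher and 3 lower in CAST. Matrix receptors had 9 of 17 higher and 3 lower in PWK, and 8 higher and 2 lower in CAST, where Itga8 was higher by 0.79.

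Markers of several kinds of cells, stromal and dividing ones among them, moved with the WSB kidney difference. Fibroblast markers had 5 of 8 higher and 1 lower in PWK and 6 of 8 higher and 1 lower in CAST, and their level was 10.21 to 10.40 in CAST, 10.02 to 10.23 in PWK and 9.80 to 10.07 in WSB. As a mean of signals over 10 markers, this level is set mainly by the most abundant ones, and 1 of the 10 was at its highest in kidney. The level was highest in CAST, whereas 15 of 38 members were lower in CAST than in PWK and 4 higher. Smooth muscle markers had 6 of 8 higher in PWK and 4 of 8 in CAST, with none lower. Proliferation markers had 8 of 10 higher in PWK and 6 of 10 in CAST, and spread widely within strains, with levels of 6.70 to 8.60 in PWK, 7.38 to 8.12 in CAST and 6.39 to 8.63 in WSB. Fat markers were higher than in WSB for 4 of 6 in CAST (median 0.58), with none lower. In PWK none of the 6 were higher and 1 was lower. Macrophage markers were higher than in WSB for 4 of 8 in both strains, with none lower. The part of all these markers in the matrix difference was not tested.

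In liver the order of strains was another. CAST liver had 3 members higher and 21 lower than WSB of 35 tested, at a median of -0.20, and 6 higher and 18 lower than PWK, at a median of -0.22. Of all genes 57% were called against WSB (25.3% lower) and 50.1% against PWK (26.3% lower). PWK against WSB had 5 higher and 10 lower, at a median of 0.00, where 55.3% of all genes were called. Basement membrane genes were lower in CAST for 5 of 7 in both comparisons and higher for none, and elastic fibre genes for 5 of 8 against WSB and 4 of 8 against PWK. Fibrillar collagens were lower in CAST for 3 of 5 against WSB and 4 of 5 against PWK.

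Liver Lum was at 6.30, 6.89 and 7.08 in CAST (n = 11) and at 7.52, 7.93 and 8.24 in WSB (n = 13). These did not overlap, and CAST was lower by 1.14 (SE 0.10, adjusted p = 8.20e-17). Liver Col5a2 was at 6.39, 6.78 and 7.06 in CAST, 6.87, 7.23 and 7.69 in PWK (n = 9) and 7.34, 7.75 and 8.25 in WSB. CAST lay below WSB without overlap, a difference of -0.999 (SE 0.09, adjusted p = 1.23e-17), and PWK lay below WSB by 0.52 with overlap, so that the PWK and WSB order was opposite to that in kidney.

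Col14a1 was lower in CAST than in PWK liver (9.09, 9.38 and 9.71 against 9.86, 10.08 and 10.40), by 0.78 (SE 0.06, adjusted p = 1.58e-20) and with no overlap. Thbs1, a matricellular thrombospondin, was lower in CAST than in PWK by 0.77 (SE 0.20) with overlap. Lox was lower in CAST than in PWK by 0.87 and than in WSB by 0.92. Postn was the member that stood highest in CAST liver, at 9.54, 9.74 and 9.89 against 8.62, 8.93 and 9.26 in PWK and 8.95, 9.28 and 9.51 in WSB. It overlapped neither, and the differences were 0.80 (SE 0.07, adjusted p = 6.98e-18) and 0.44 (SE 0.06, adjusted p = 2.81e-09).

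Timp2 was lowest in PWK liver, at 8.73, 8.88 and 8.95, against 9.20, 9.31 and 9.43 in CAST and 9.30, 9.55 and 9.67 in WSB. PWK was lower than WSB by 0.69 (SE 0.05, adjusted p = 7.04e-21) and CAST was higher than PWK by 0.46. The remaining leading members differed by less, with CAST above PWK in Timp3 by 0.43, CAST above WSB in Col6a3 and Mmp14 by 0.32 and 0.18 (the latter at an adjusted p of 0.0815 with animal runs as a random block), PWK above WSB in Lama2, Emilin1 and Col15a1 by 0.40, 0.37 and 0.34, and PWK below WSB in Lum by 0.65. Other lists of the pathway were lower in CAST liver in part. Against WSB, 9 of 13 other basement membrane genes were lower and none higher, with Lamb3 lower by 0.91, and 6 of 10 TGF-beta genes were lower and none higher, with Tgfb1 lower by 0.90 and Ccn2 by 0.71. Collagen processing had 3 of 15 higher and 7 lower, other microfibril genes 2 of 8 higher and 3 lower (median 0.10), and matrix receptors 6 of 17 higher and 6 lower. Against PWK the receptors had 6 higher and 4 lower (median 0.16). Hepatic stellate cell markers were lower in CAST for 5 of 6 against WSB and 6 of 6 against PWK, and fibroblast markers for 4 of 6 in both, with none higher against WSB and 1 higher against PWK. Macrophage markers were lower in CAST for 6 of 8 against both strains, with 2 higher. Smooth muscle markers were lower for 5 of 7 against WSB and 1 of 7 against PWK, with none higher. Proliferation markers were higher in CAST for 7 of 12 against WSB (median 0.62), with none lower, and none of 12 were called against PWK. Their part was not tested.

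In lung single members differed strongly between strains, with no shared direction. The members had 10 higher and 14 lower in CAST than in PWK, 10 higher and 17 lower in CAST than in WSB, and 9 higher and 14 lower in PWK than in WSB, of 40 tested, at medians of -0.03, -0.10 and -0.02. Of all genes 62.7%, 59.9% and 61.4% were called in these comparisons. Tnc (tenascin-C, a glycoprotein of growing and remodelling tissue) was at 7.67, 7.89 and 8.47 in CAST (n = 10), 9.09, 9.83 and 10.08 in PWK (n = 12) and 8.51, 9.47 and 10.61 in WSB (n = 12). CAST lay below both without overlap, by 1.70 against PWK (3.26-fold, SE 0.14, adjusted p = 7.83e-20) and by 1.60 against WSB (SE 0.14, adjusted p = 2.99e-18).

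Lox and Mfap5 of the elastic fibre group were highest in WSB lung. Lox was at 8.86, 9.65 and 10.12 in CAST, 10.47, 10.67 and 11.02 in PWK and 10.79, 11.45 and 11.71 in WSB. CAST overlapped neither strain, with differences of -1.07 against PWK and -1.61 against WSB (SE 0.09, adjusted p = 1.89e-29), and PWK was below WSB by 0.54 with overlap. Mfap5 was at 10.50, 10.61 and 11.02 in WSB against 8.97, 9.31 and 9.73 in CAST and 8.31, 8.89 and 9.44 in PWK. WSB stood clear of both, 3.39-fold above PWK (a PWK minus WSB difference of -1.76, SE 0.09, adjusted p = 9.63e-32), and CAST was below WSB by 1.32.

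Lum and Col6a5 were highest in CAST lung. Lum was at 8.76, 9.12 and 9.61 in CAST, 7.17, 7.74 and 8.37 in PWK and 7.15, 7.78 and 8.67 in WSB, with CAST above PWK by 1.29 and above WSB by 1.31 (SE 0.12 in both). Col6a5, a collagen VI chain, was at 7.81, 8.07 and 8.39 in CAST, 6.11, 6.93 and 7.40 in PWK and 6.38, 6.75 and 7.33 in WSB, with differences of 1.15 and 1.25 (SE 0.09 in both). For both genes CAST overlapped neither strain. Of the other leading members, Timp1 in PWK lay below CAST by 1.13 and below WSB by 0.72, both with overlap. Col6a3 in PWK exceeded CAST by 0.55 and WSB by 0.42, Col3a1 in CAST exceeded WSB by 0.51, and PWK exceeded WSB in Fn1 by 0.40 and in Mmp14 by 0.34.

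Lung genes that process collagen also differed by strain in both directions. In CAST against PWK 5 of 17 were higher and 7 lower, with P4ha3 higher by 1.71 and Plod1 lower by 1.13. Other basement membrane genes had 1 of 14 higher and 5 lower, with Col4a4 lower by 0.83 and Col4a3 by 0.60. Smooth muscle markers were higher in CAST lung for 6 of 8 against PWK and 7 of 8 against WSB with none lower. Heart muscle markers were higher in CAST than in PWK for 4 of 6 (median 0.64), with none lower. They were lower than in WSB for 4 of 6 in CAST (median -0.60) and 6 of 6 in PWK (median -1.22), with none higher. Fat markers were higher in CAST for 3 of 4 against PWK and 4 of 4 against WSB, with none lower. Lymphocyte markers were higher in CAST than in PWK for 5 of 7 (median 1.36), with none lower. Against WSB 4 of 7 were higher in CAST and 3 lower. Fibroblast markers were split, 3 higher and 5 lower of 9 in CAST against PWK. Their part in the lung differences was not tested.

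In brain, where only 26 members were tested, CAST against PWK had 1 higher and 5 lower of 26, CAST against WSB 5 higher and 10 lower, and PWK against WSB 4 higher and 13 lower, where 40.9%, 52.4% and 40.4% of all genes were called. Markers of the meninges were lower than in WSB for 4 of 6 in CAST (median -0.31) and 5 of 6 in PWK (median -0.39) with none higher, and fibroblast markers for 2 of 3 and 3 of 3. Their part was not tested. Lama2, the laminin chain of vessel and muscle basement membranes, stepped from CAST at 6.69, 7.03 and 7.25 (n = 8) through PWK at 7.33, 7.48 and 7.78 (n = 6) to WSB at 7.77, 8.09 and 8.28 (n = 11). CAST overlapped neither, and lay 2.14-fold below WSB, a difference of -1.10 (SE 0.07, adjusted p = 1.004e-23), and below PWK by 0.53. PWK lay below WSB by 0.57, with a narrow overlap.

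Col6a1 was higher in CAST than in PWK brain (7.76, 7.91 and 8.06 against 7.09, 7.32 and 7.68), by 0.61 (SE 0.10, adjusted p = 4.39e-07) and with no overlap. Its neighbour Col6a2 was lower in CAST than in WSB (6.61, 6.94 and 7.07 against 7.41, 7.53 and 7.91) by 0.69 and in PWK by 0.45, and Loxl1 was lower than in WSB by 0.59 in CAST and 0.52 in PWK. Vcan was lowest in WSB brain, at 8.58, 8.71 and 8.93, below CAST by 0.39 and PWK by 0.44 without overlap. Smaller differences were those of Tnc (0.41 higher in CAST than in WSB), Fn1 (0.27 higher in CAST and 0.29 in PWK than in WSB), Fbln1 (0.35 higher in PWK than in WSB), and Mmp14 and Fbln5 (each 0.27 lower in CAST than in PWK).

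**Figure D2:**
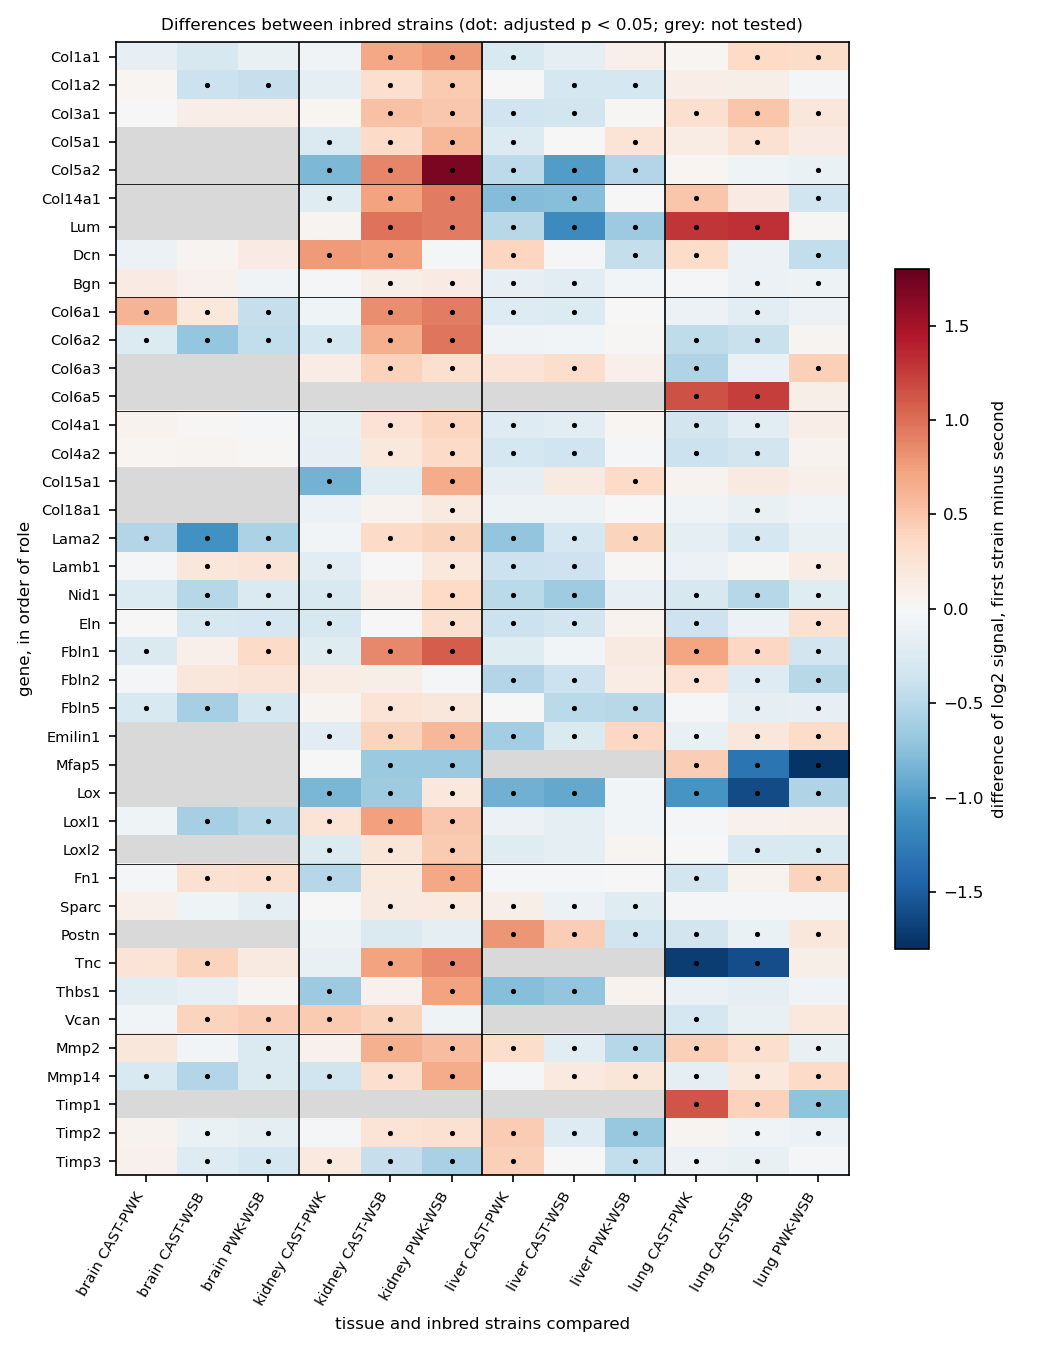
Heat map of log2 differences between inbred strains for the matrix genes (rows, by role) in each tissue and strain pair (columns), with dots where the adjusted p was under 0.05 and grey where a gene was not tested. The kidney columns against WSB are mostly positive, at medians of 0.28 and 0.43, and the liver columns of CAST mostly negative, at -0.22 and -0.20.

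Strain differences of matrix genes often turned direction between tissues. Of 114 combinations of a member and a strain pair that were tested in at least 2 tissues, 51 (44.7%) were called in opposite directions in 2 tissues, against 18.7% of such combinations over all genes. Col5a2 in PWK against WSB was 1.69 in kidney, -0.52 in liver and -0.12 in lung, the lung value being lost with animal runs as a random block (adjusted p = 0.131). Lum in CAST against WSB was 0.98 in kidney, -1.14 in liver and 1.31 in lung, and Tnc in the same pair was 0.41 in brain, 0.72 in kidney and -1.60 in lung. Lama2 in CAST against WSB was -1.10 in brain, 0.35 in kidney and -0.32 in both liver and lung.

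Only 6 combinations (5.26%) were called in the same direction in every tissue where they were tested, against 14.6% over all genes, and all 6 belonged to 3 elastic fibre genes. Lox was lower in CAST than in PWK by 0.82, 0.87 and 1.07 in kidney, liver and lung, and lower than in WSB by 0.64, 0.92 and 1.61. Emilin1, an elastin-associated glycoprotein, was lower in CAST than in PWK by 0.19, 0.62 and 0.13 in these tissues, and in PWK it exceeded WSB by 0.60, 0.37 and 0.33. Mfap5, tested in kidney and lung, was lower than in WSB by 0.66 and 1.32 in CAST and by 0.67 and 1.76 in PWK. With animals of neighbouring numbers treated as a random block, the Emilin1 difference of CAST and PWK was no longer called in kidney (adjusted p = 0.127) or lung (adjusted p = 0.116).

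The change of a strain difference between tissues was tested directly, as the difference in one tissue minus the mean of the same difference in the other 3. A gene had to reach the level set for testing in the first tissue only, so the other 3 can include tissues where it was not tested. In kidney 30 of 38 members were called for CAST against WSB (27 higher, 3 lower) and 32 for PWK against WSB (30 higher, 2 lower), where 33.4% and 37.9% of all genes were called. CAST against PWK had 12 of 38 called, and 36% of all genes. In liver 27 of 35 were called for CAST against WSB (3 higher, 24 lower), 19 for CAST against PWK and 12 for PWK against WSB, with 45.2%, 40.1% and 43.6% of all genes. Lung had 25, 18 and 15 of 40 called for CAST against PWK, CAST against WSB and PWK against WSB (43.9%, 47.1% and 38.9% of all genes), and brain 10, 13 and 13 of 26 (27.2%, 36.8% and 31.1%).

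The largest of these tissue-dependent differences belonged to the genes named above. For Col5a2 in PWK against WSB, kidney departed from the other tissues by 1.94 (SE 0.09, adjusted p = 1.15e-64) and liver by -1.02. Lum in CAST against WSB departed by -2.03 in liver (SE 0.15, adjusted p = 5.55e-32) and by 1.24 in lung. Tnc departed by -1.73 in lung and by 1.36 in kidney in CAST against WSB, and Mfap5 by -1.39 in lung in PWK against WSB. The tissues set against these took in some of low signal where the gene was not tested. These were brain for Col5a2 and Lum (means of 5.27 and 5.75), liver for Tnc (5.62), and brain and liver for Mfap5 (4.87 and 5.14). The sizes given are therefore not comparisons among tested tissues alone.

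F1 kidneys with a WSB parent did not have the low fibrillar collagen level of WSB inbreds. The mean of the 5 fibrillar collagens per array was 8.37 ± 0.21 in WSBxWSB kidney (n = 12), 8.93 ± 0.28 in CASTxCAST (n = 11) and 9.17 ± 0.25 in PWKxPWK (n = 12), and from 8.81 to 9.08 in the 6 F1 crosses. Collagen VI was at 7.52 ± 0.18 in WSBxWSB and from 7.85 to 8.29 in the F1 crosses. Against the mean of both inbred parents, 11 of 38 members were called higher and 1 lower in the kidney of the PWK and WSB F1, where 37.4% of all genes were called. These numbers were 7 and 2 for CAST and WSB (42.7%) and 1 and 7 for CAST and PWK (33.7%). In each pair the share of members called was below that of all genes. With animal runs as a random block 4, 3 and 1 members were called in these pairs. Smooth muscle markers were below the mid-parent in kidney for 5 of 8 for CAST and PWK and 3 of 8 for CAST and WSB, and macrophage markers for 5 of 8 in the former. What part these have was not tested.

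Kidney Col5a2 in the F1 of PWK and WSB was at 7.52, 8.08 and 8.34 (n = 22) over a mid-parent level that it exceeded by 0.38 (SE 0.05, adjusted p = 4.08e-08), and in the F1 of CAST and WSB it exceeded the mid-parent by 0.30. Vcan and Tnc exceeded it by 0.76 (SE 0.11) and 0.55 (SE 0.09) in the F1 of PWK and WSB. Lox was below the mid-parent by 0.18 there and by 0.27 in the F1 of CAST and WSB, and Postn was below by 0.41 in the F1 of CAST and PWK.

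Liver Col5a2 was near the CAST level in every cross with a CAST parent. Its median was 6.78 in CASTxCAST, and 6.81, 6.83, 6.86 and 6.78 in CASTxPWK, PWKxCAST, CASTxWSB and WSBxCAST, while PWKxWSB and WSBxPWK were at 7.83 and 7.87, near the 7.75 of WSBxWSB. It was below the mid-parent by 0.43 (SE 0.06, adjusted p = 4.06e-08) in the F1 of CAST and WSB and above by 0.32 (SE 0.06) in that of PWK and WSB. Of 35 members tested in liver, none were higher and 7 lower than the mid-parent in the F1 of CAST and PWK, 3 and 6 for CAST and WSB, and 2 and 6 for PWK and WSB, where 18.7%, 25.3% and 17% of all genes were called. Thbs1 was below by 0.37 and 0.52 in the latter pairs, Fbln5 below by 0.26 for PWK and WSB, and Mmp14 above by 0.25 for CAST and WSB. Macrophage markers were below the mid-parent in liver for 4 of 8 for CAST and PWK and for 6 of 8 for PWK and WSB, with 1 above in the latter, where all 12 proliferation markers were above (median 1.16). Their part was not tested.

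In the lung of both F1 pairs with a WSB parent more members lay above the mid-parent than below it. In the F1 of CAST and WSB 18 of 40 members were called higher and 1 lower, and in that of PWK and WSB 16 higher and 3 lower, where 30.5% and 37.2% of all genes were called (14.9% and 22.7% higher). The F1 of CAST and PWK had 4 higher and 2 lower (19.5%). The medians of the members were 0.09, 0.11 and -0.01. Fibrillar collagens were higher for 4 of 5 and 3 of 5 in the crosses with WSB, and collagen VI for 4 of 4 and 2 of 4. With neighbouring animal numbers as a random block 9 members were higher and 1 lower for CAST and WSB and 10 higher and 1 lower for PWK and WSB, where 12.9% and 8.95% of all genes were called.

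Col6a5 exceeded the mid-parent in lung in every pair, by 0.31 (SE 0.07) for CAST and PWK, 0.54 (SE 0.07) for CAST and WSB and 0.93 (SE 0.07, adjusted p = 3.12e-21) for PWK and WSB. In the latter it was at 7.33, 7.69 and 8.30 in the F1 (n = 21) and at 6.11, 6.83 and 7.40 in the inbreds (n = 24), which overlapped narrowly. Lung Tnc exceeded the mid-parent by 0.33 and 0.54 in the pairs with CAST, Lum by 0.54 and Mfap5 by 0.38 for PWK and WSB, and Col14a1 by 0.34 for CAST and WSB. Lox was below by 0.26 for CAST and WSB and by 0.40 for PWK and WSB. As a description of direction, both reciprocal F1 means lay above both parents for 17 of 40 members in the PWK and WSB lung and below both for 4, against 15% and 13.3% of all genes. For CAST and WSB lung these were 8 and 0 members (8.88% and 12% of all genes) and for CAST and PWK lung 2 and 7 (10.7% and 14.1%). In brain 5 of 26 members lay above both parents and 9 below for CAST and PWK (18.7% and 16.2% of all genes). Brain had 2 and 5 for CAST and WSB (20.8% and 15.8%) and 4 and 3 for PWK and WSB (13.3% and 13.7%). In kidney 0 to 3 of 38 lay above and 1 to 6 below over the pairs, where all genes had 12.2% to 17.1% and 17.5% to 18.8%. In the liver of PWK and WSB 3 of 35 members lay above both parents and 15 below, against 9.19% and 15.2% of all genes. For CAST and PWK liver these were 0 and 8 members (8.16% and 14.9%), and for CAST and WSB liver 3 and 7 (10.7% and 15.3%).

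Lung markers moved in these F1 too. Smooth muscle markers were higher than the mid-parent for 7 of 8 for CAST and WSB and 6 of 8 for PWK and WSB, with none lower. Endothelium markers were higher for 6 of 8 in the former, and all 8 proliferation markers, 4 of 6 heart muscle markers (median 0.35) and 4 of 9 fibroblast markers in the latter, where 1 fibroblast marker was lower. Lymphocyte markers were higher for 4 of 7 in each of the 3 pairs, at medians of 0.21 to 0.33. In the lung of CAST and PWK 6 of 8 endothelium markers were higher and 6 of 8 macrophage markers lower. Their part was not tested. In brain, Col1a1 was below the mid-parent in each pair, by 0.54 for CAST and PWK, 0.40 for CAST and WSB and 0.44 for PWK and WSB (SE 0.13, 0.12 and 0.12). The brain counts were 2 higher and 6 lower, none higher and 9 lower, and 2 higher and 2 lower of 26, where 18.9%, 37.1% and 10% of all genes were called. Fbln1 was below by 0.35 for CAST and WSB and Col4a2 by 0.28 for CAST and PWK. With animal runs as a random block the Col1a1 difference of PWK and WSB was no longer called (adjusted p = 0.0525). Meningeal markers were called lower for 1 of 6, 1 of 6 and 0 of 6 in these pairs.

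**Figure D3:**
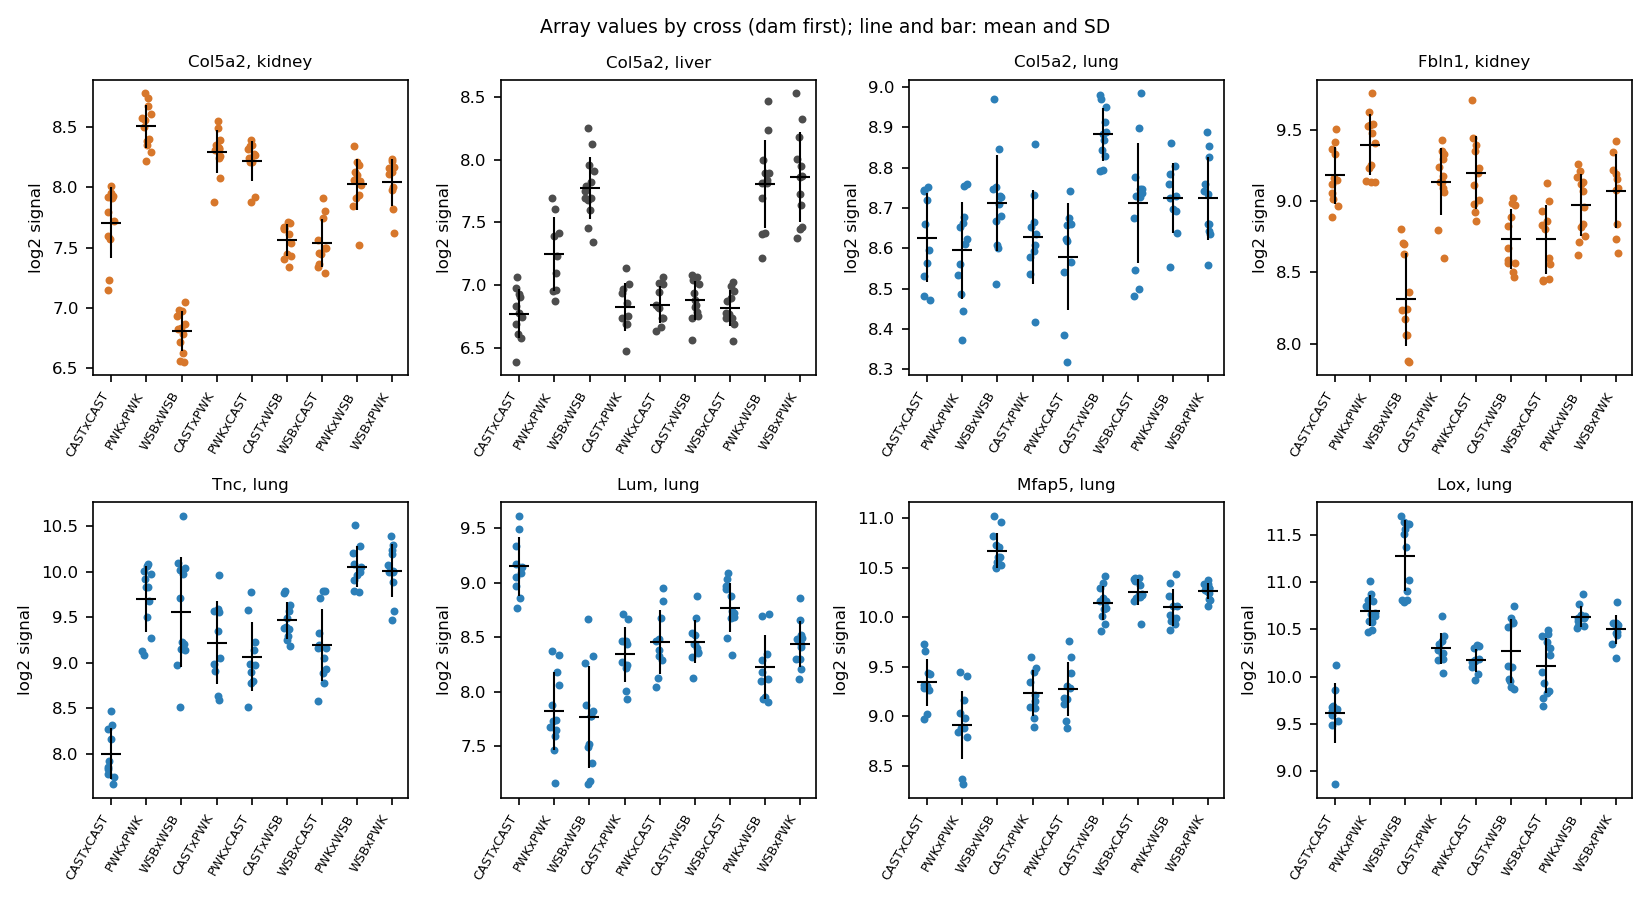
Log2 signal of Col5a2 (kidney, liver, lung), Fbln1 (kidney), Tnc, Lum, Mfap5 and Lox (lung) in the 9 crosses, each point being an array and the bar the mean with its SD. In kidney WSBxWSB is lowest for Col5a2, at a median of 6.83, and in liver the crosses with a CAST parent sit at medians of 6.78 to 6.86.

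Matrix genes differed with cross direction mainly in the lung of the pair of CAST and WSB. CASTxWSB lungs had 20 of 40 members called higher than WSBxCAST lungs and 2 lower, at a median of 0.16, where 38.8% of all genes were called, 14.5% higher and 24.3% lower. The higher members were all 5 fibrillar collagens (median 0.24), 6 of 7 basement membrane genes (median 0.22), 3 of 4 collagen VI chains, 2 of 4 fibril partners, 2 of 6 adhesive genes, and 1 each of 9 elastic fibre and 5 turnover genes. In males alone 10 members were called higher and 2 lower (30.8% of all genes called), and in females alone none of 40 (0.319% of all genes). In females 21 of 40 members were at an unadjusted p under 0.05, as were 2065 of 11292 genes. The medians were 0.13 in males and 0.20 in females, and the limma test of the difference between the sexes called no member. The elastic fibre group had the lowest share, with Loxl2 as its called member at 0.22, which was 0.06 (adjusted p = 0.339) when both clusters of Loxl2 were averaged.

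Thbs1 was at 11.70, 11.996 and 12.43 in CASTxWSB lung (n = 11) and at 11.11, 11.61 and 12.07 in WSBxCAST (n = 12), a difference of 0.44 (SE 0.13, adjusted p = 0.0074). Lama2 was at 10.12, 10.20 and 10.65 against 9.60, 9.87 and 10.28, a difference of 0.38 (SE 0.08, adjusted p = 0.00018). Col6a3 was at 10.80, 11.05 and 11.49 against 10.32, 10.65 and 11.29, a difference of 0.38 (SE 0.09, adjusted p = 0.00093). In each of these the ranges overlapped. Lum and Mmp14, a membrane-bound collagenase, were lower in CASTxWSB, by 0.32 (SE 0.11) and 0.12 (SE 0.05).

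Litters and days of collection are not given in the labels, and runs of neighbouring animal numbers were used as a random block in their place. With them 9 members were called higher and none lower, namely Bgn, Col4a1, Col4a2, Col5a1, Col6a3, Fn1, Lama2, Lamb1 and Timp3, where 8.4% of all genes were called. The Thbs1 difference was then 0.40 with an adjusted p of 0.142. Lymphocyte markers were lower in CASTxWSB lung for 7 of 7 at a median of -0.62, their level being 7.35 to 8.53 against 8.41 to 9.05 in WSBxCAST, and smooth muscle markers were higher for 4 of 8. Fibroblast markers were higher for 1 of 9. Whether these accompany the matrix difference by way of tissue make-up was not tested.

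Genes of the same pathway went with the members. Other basement membrane genes were higher in CASTxWSB lung for 12 of 14, with Hspg2 (perlecan) higher by 0.57 and Col4a3 by 0.30, and matrix receptors for 11 of 17, with Itga5 (a chain of the fibronectin receptor) higher by 0.28 and Itga3 by 0.20. Collagen processing had 4 of 17 higher, other microfibril genes 3 of 7 and TGF-beta genes 3 of 10. Among these lists 1 TGF-beta gene, Ccn1, was called lower, by 0.58.

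**Figure D4:**
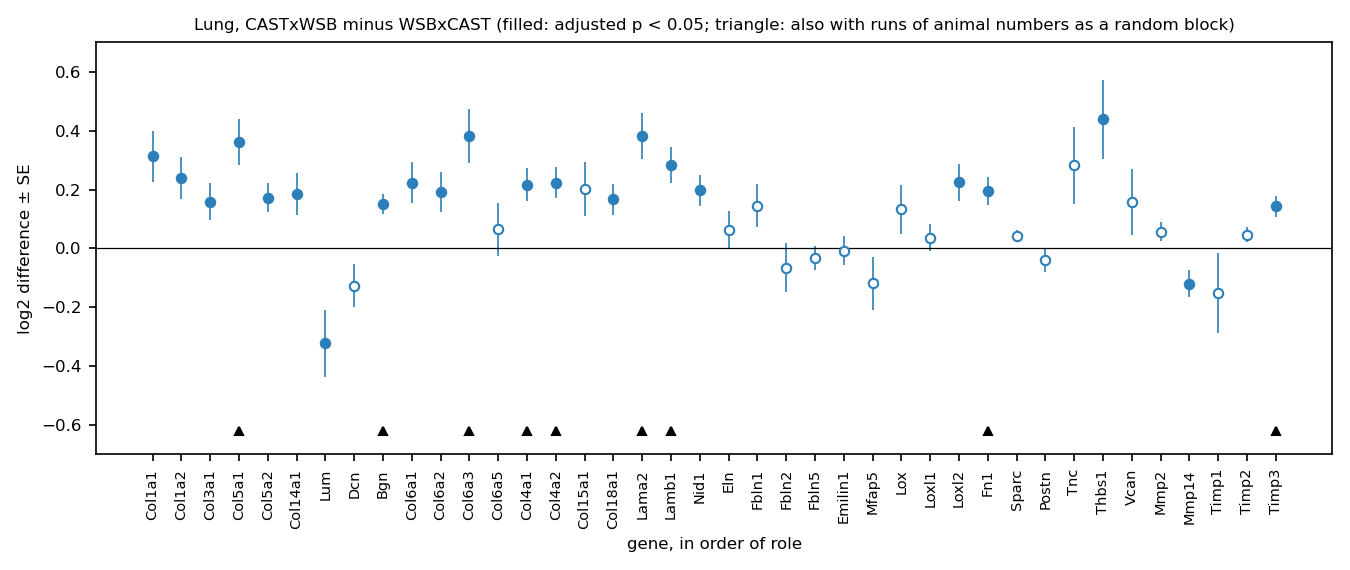
Log2 difference of CASTxWSB minus WSBxCAST in lung for each of the 40 matrix genes by role, with bars of 1 SE, filled where the adjusted p was under 0.05 and with a triangle where it was so with animal runs as a random block too. The collagens and laminins called lie above 0, from 0.16 for Col3a1 to 0.38 for Lama2, and Lum lies lowest at -0.32.

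Other reciprocal pairs had few matrix calls. CASTxPWK kidneys had none of 38 members higher and 8 lower than PWKxCAST kidneys, where 3.03% of all genes were called. Of these 8, 4 were basement membrane genes, with Col4a1 lower by 0.28 (SE 0.07), Col4a2 by 0.27, Nid1 by 0.24 and Lamb1 by 0.23, and Col14a1 was lower by 0.28. In females alone no member was called, with 8 of 11292 genes called. At an unadjusted p under 0.05 there were 21 of 38 members and 739 genes in females. In males alone 1 member was called, lower, with 297 genes called, and 9 members and 1996 genes were at that unadjusted p. The medians of the members were -0.24 in females and -0.03 in males. None of the 8 members called with the sexes together were called with animal runs as a random block (adjusted p = 0.9995 for each). In the kidney of CASTxWSB, Col14a1 was below WSBxCAST by 0.23 (2.44% of all genes called), and this too was not called with animal runs as a random block.

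In liver Postn and Sparc were lower in CASTxPWK than in PWKxCAST by 0.32 and 0.11 (9.32% of all genes), and Mmp14 was lower in CASTxWSB than in WSBxCAST by 0.38 (5.62%). In brain Fbln1 was lower in CASTxWSB than in WSBxCAST by 0.32 (0.779%). With the sexes weighted equally, the limma fit called no member in PWKxWSB against WSBxPWK kidney, liver or brain, in CASTxPWK against PWKxCAST lung or in the same pair in brain, where 1%, 1.22%, 0.248%, 0.611% and 0.151% of all genes were called. In males alone 1 of 38 members was called in PWKxWSB against WSBxPWK kidney, a fibril partner that was lower, with 99 of 11292 genes called. In females alone no member and no gene was called there. The medians of the members were -0.14 in males and 0.14 in females. With animal runs as a random block the liver and brain calls were lost, at adjusted p from 0.223 to 0.521.

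Timp1 and Bgn lie on the X chromosome, so F1 males carry only the dam's allele while F1 females carry both. Timp1, an inhibitor of metalloproteinases, was called in lung in PWKxWSB against WSBxPWK at -0.52 (8.4% of all genes called), which was lost with animal runs as a random block (adjusted p = 0.530). PWKxWSB males were at 6.53, 6.92, 7.27 and 7.34 and WSBxPWK males at 7.73, 7.77, 7.81, 7.83 and 7.95. They did not overlap, and differed by -0.80 (two-sided exact permutation p = 0.0079, the smallest these numbers allow, and 0.127 adjusted over 48 tests of both genes).

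CASTxPWK males were at 7.24, 7.48, 7.51 and 7.67 and PWKxCAST males at 6.46, 6.78, 6.79, 6.92 and 7.40, with 1 overlapping array. The difference was 0.61 (exact p = 0.0238, adjusted 0.190), with exact p up to 0.0893 when 1 array was left out. CASTxWSB males were at 7.02, 7.45, 7.51, 7.55 and 7.67 and WSBxCAST males at 7.23, 7.86, 7.93, 7.94, 7.97 and 8.05, a difference of -0.39 (exact p = 0.0519, adjusted 0.280). Females of the same pairs differed by -0.23, 0.04 and 0.09 (exact p = 0.162, 0.868 and 0.426). In lung of inbred males the Timp1 means were 7.93 in CAST, 7.66 in WSB and 6.76 in PWK. None of these exact tests passed the adjustment. In the limma fit of males alone, 1 of 40 members was called in PWKxWSB against WSBxPWK lung. It was 1 of the 5 turnover genes and was lower, where 215 of 11292 genes were called. In females alone none of 40 were called there, and 57 of 11292 genes. The limma test of whether males and females differed in the reciprocal difference called no member in any tissue and pair. For CASTxPWK, CASTxWSB and PWKxWSB against their reciprocals it called 0.106%, 0.115% and 0.186% of all genes tested in lung. In kidney these shares were 0.124%, 0.0797% and 0.257%. For liver they came to 0.0974%, 0.0974% and 0.106%, and for brain to 0.0531%, 0.0266% and 0.0443%. At an unadjusted p under 0.05 the lung had 9, 1 and 4 of 40 members, the kidney 4, 0 and 19 of 38, the liver 0, 3 and 3 of 35, and the brain 0, 1 and 4 of 26. Of 11292 genes, 598, 626 and 619 were at that p in lung and 684, 479 and 624 in kidney. These numbers were 397, 973 and 1266 in liver and 343, 229 and 545 in brain.

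Bgn differed in lung between CASTxWSB and WSBxCAST in both sexes, by 0.18 in males without overlap (exact p = 0.0043, adjusted 0.127) and by 0.13 in females (exact p = 0.0195, adjusted 0.187). In kidney, where Timp1 was below the level set for testing, CASTxWSB males were lower than WSBxCAST males by 0.51 without overlap (exact p = 0.0079, adjusted 0.127). Kidney Timp1 averaged 5.69 in PWKxWSB and 6.06 in WSBxPWK males (exact p up to 0.0476 when 1 array was left out). It averaged 5.62 in CASTxPWK and 5.44 in PWKxCAST females (exact p up to 0.0556 when 1 array was left out). In both the ranges overlapped. CASTxPWK and PWKxCAST males had means of 5.68 and 5.53. The means were 5.87 and 5.85 in CASTxWSB and WSBxCAST females, and 5.99 and 5.90 in PWKxWSB and WSBxPWK females.

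Lungs of females had less fibrillar collagen and collagen VI signal than those of males. Of 40 members 12 were called lower in females and none higher, where 3.52% of all genes were called (1.28% lower). All 4 collagen VI chains and 3 of 5 fibrillar collagens were among them, at group medians of -0.17 and -0.13, with Nid1, Fbln5, Fn1, Mmp2 and Mmp14 as the others. Col6a5 was at 6.11, 7.60 and 8.13 in females (n = 50) and at 6.57, 7.90 and 8.46 in males (n = 48), a difference of -0.34 (SE 0.04, adjusted p = 4.91e-08). Col1a1 was at 10.48, 11.24 and 11.81 against 10.87, 11.49 and 12.10, a difference of -0.20 (SE 0.04, adjusted p = 0.0019), and Col1a2 differed by -0.18 (SE 0.03, adjusted p = 0.00055). The sexes overlapped widely in each of these genes.

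The direction held within crosses. Col6a5, Col1a1 and Col6a1 were lower in females in 9 of 9 crosses, and Col1a2, Col3a1 and Col6a2 in 8 of 9. Within the 13 runs of neighbouring animal numbers that held both sexes, Col3a1 and Col6a1 were lower in females in 13 and Col1a1, Col1a2, Col6a2 and Col6a5 in 12. The Fn1 call was lost when any of 52 single arrays was left out (adjusted p up to 0.0818), the Fbln5 call for 18 arrays and the Mmp2 call for 2, while the other 9 calls held with each array left out. With animal runs as a random block 11 members were called, all lower in females, and without WSBxWSB replicate 11 the count was 20. Of other basement membrane genes 4 of 14 were lower in females, among them Lama3 by 0.15 and Lamb3 by 0.10, and of other microfibril genes 2 of 7. Fibroblast markers were called for none of 9 (4 at an unadjusted p under 0.05, median 0.04) and smooth muscle markers for none of 8, whereas 1 of 8 proliferation markers was lower and 1 of 7 lymphocyte markers higher. Proliferation markers had a median of -0.15, with 7 of 8 at an unadjusted p under 0.05, as were 2535 of 11292 genes. Their part was not tested.

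**Figure D5:**
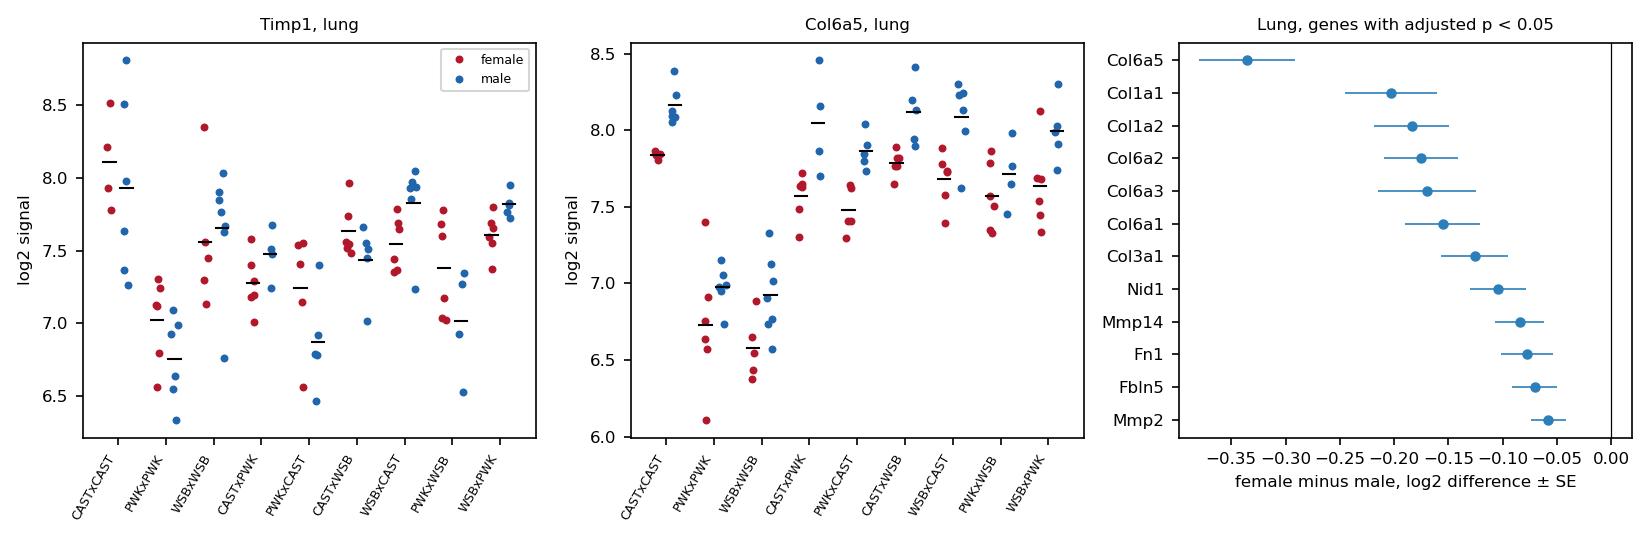
Lung signal of Timp1 and Col6a5 by cross and sex, each point being an array, and the female minus male difference in lung, with bars of 1 SE, of the 12 members called. Timp1 lies at 6.53 to 7.34 in PWKxWSB males and at 7.73 to 7.95 in WSBxPWK males, and all 12 differences are negative, the largest being Col6a5 at -0.34.

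The other tissues had fewer sex differences. Liver had 5 members higher and 1 lower in females of 35, where 13.8% of all genes were called, with Mmp14 higher by 0.18 (SE 0.04), Dcn by 0.10 and Postn by 0.09, and Eln lower by 0.12. Kidney had 1 higher and 2 lower of 38 (10.9% of all genes), Thbs1 being higher by 0.12 and Timp3 and Col14a1 lower by 0.10. Proliferation markers were lower in females for 12 of 12 in liver (median -0.54) and 10 of 10 in kidney (median -0.37), and in female liver 3 of 8 macrophage and 2 of 6 fibroblast markers were higher, and what part they have was not tested. In brain the limma fit called no member of 26, where 0.0708% of all genes were called. At an unadjusted p under 0.05 there was 1 member, and 903 of 11292 genes. Whether the sex difference in lung differed from that in the other tissues was not tested.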

How the data were processed

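The deposited table holds log2 signals of 35556 transcript clusters on 386 Affymetrix arrays, which the authors made with RMA in Affymetrix Expression Console per the submitters' processing notes. Versions, and whether the tissues were normalised together, are not given in the sources used here, nor are plate, litter or collection day. Of the clusters 21218 carry 1 gene symbol, 1881 several and 12457 none, and 21185 matched the RefSeq gene table (GRCm38.p6). No values were rescaled. A strain variant beneath a probe can lower that strain's signal, and such variants were not analysed here.

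Groups follow the labelled cross, sex and tissue. The linear models (lmFit and contrasts.fit, then eBayes with a mean trend) were run in R 4.3.3 by limma 3.58.1 on 11292 genes a tissue, with 18 means of cross and sex in a tissue, 36 means of cross and tissue for tissue differences and 72 means for the tissue dependence of strain differences. P-values were adjusted by Benjamini-Hochberg over all genes tested in a tissue and contrast. The limma script was tested on simulated data. X-linked members were compared by exact permutation tests (two-sided) in Python 3.11.15. The number of arrays limits the precision.

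The members, roles, pathway lists and marker lists were chosen with earlier results of these data known. Up to 3 called members with the largest difference in each direction were named for each tissue and contrast, with members called alike in every tissue tested, the X-linked Bgn and Timp1 in reciprocal crosses, members highest in another tissue than most of their role, and up to 2 pathway genes with the smallest p in each direction. Other genes were named after their values were seen. Alternatives were no filter, a filter at the 60th percentile, median centring, quantile normalisation, array weights, an additive model, the mean of a symbol's clusters, animals or runs of neighbouring animal numbers (25 runs, a gap of over 5 starting a new run) as random blocks, and leaving out arrays. Runs as a fixed term were added after seeing the data.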

Additional observations from a re-analysis of the deposited data

Results flagged for a closer look

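Lox in lung had 1 low array, CASTxCAST replicate 7 at 8.86, whose nearest neighbour among the 10 arrays was at 9.49, a gap of 0.499 of the group's range. It was the only such array among 41 groups examined, and chance gives about 1 in 20 groups.

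The strain difference in one tissue departed from its mean in the other tissues (limma, tested as the difference itself) for many members. The other tissues include those where a member was below the level set for testing. In kidney 12 of 38 members did so for CAST against PWK, 30 for CAST against WSB and 32 for PWK against WSB. In liver these numbers were 19, 27 and 12 of 35, in lung 25, 18 and 15 of 40, and in brain 10, 13 and 13 of 26.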

How the results depend on the processing

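Counts here add the called members of all contrasts of a kind in a tissue. A random block for runs of nearby animal numbers took reciprocal calls from 23 to 9 in lung, from 9 to 0 in kidney, from 3 to 0 in liver and from 1 to 0 in brain, and mid-parent calls from 44 to 22 in lung, 29 to 8 in kidney, 24 to 6 in liver and 21 to 12 in brain. The few reciprocal calls moved with most settings. In kidney they were 5 with no filter, with arrays centred on their median or with an additive model of cross and sex, and 14 with array weights. In brain they were 0 with no filter or the additive model, 2 with centring and 5 with array weights, and in liver 6 with array weights. Sex calls in liver went from 6 to 3 with centring or quantile normalisation. In kidney they went from 3 to 6 with array weights, and to 6 with runs as a fixed term, an alternative chosen after seeing the data. In lung they ranged from 9 to 20 when 1 array was left out, 20 being reached without WSBxWSB replicate 11. The filter sets how many members are tested. With none, tissue calls in brain went from 26 to 40. At the 60th percentile they were 11 in brain and 20 in liver (33 before), and brain counts fell to 17 for inbred differences (38 before), 12 for the tissue dependence (36 before) and 9 for mid-parent (21 before). Centring reversed 5 tissue differences, Mmp2 and Sparc in kidney to -0.0223 and -0.0448, and Col5a2, Fbln2 and Nid1 in liver to 0.3841, 0.0212 and 0.0734. The animal as a random replicate block kept all 362 member values it could be fitted for on their side of the threshold. Groups of 2 to 7 arrays for a cross and sex limit what the reciprocal and X-linked comparisons can show, and the cause of these shifts was not tested.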
